A study of Mus musculus with 3 samples.

Results

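Fc receptors bind the constant part of antibodies and connect antibody-coated targets to the cells that carry the receptor. The 7 Fc receptor genes described here, of 31053 genes measured, were chosen by name. They are the activating IgG receptors Fcgr1, Fcgr3 and Fcgr4, the inhibitory IgG receptor Fcgr2b, the common gamma chain Fcer1g, the low-affinity IgE receptor Fcer2a (CD23) and the IgM receptor Fcmr. Their transcripts were counted in single live CD45+ cells sorted from the pancreas of C57BL/6J wild-type mice, aged 6 to 8 weeks, in barcodes with at least 1000 unique molecular identifiers (UMIs) and at most 30% mitochondrial UMIs. There was 1 library for each of 3 groups: mice injected with PBS (the control), and mice injected intraperitoneally with WGP, a particulate beta-glucan from yeast, 3 days (3-day WGP) or 7 days (7-day WGP) before euthanization. Mice of both sexes were used in the study, and the labels give neither the sex nor the number of mice behind a library.

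IgG receptors act in opposing pairs. The activating receptors rely on the gamma chain, which carries the phosphorylation motif that recruits Syk and triggers phagocytosis, degranulation and cytokine release, whereas Fcgr2b carries an inhibitory motif that recruits the phosphatase encoded by Inpp5d and raises the threshold for activation. Macrophages and monocytes carry both kinds, natural killer (NK) cells carry mainly Fcgr3, and B cells carry Fcgr2b as their only IgG receptor together with CD23 and the IgM receptor. The relation of activating to inhibitory receptors on a myeloid cell is therefore widely used as a measure of its readiness to respond to IgG.

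The promoters of the IgG receptors are printed here because Fcgr4 was the receptor whose level differed most between the libraries in monocyte/macrophage-like cells, while Fcgr2b and Fcgr3, its neighbours on chromosome 1, differed less. Each runs from 250 bases before to 50 bases after the transcript start in RefSeq (GRCm38.p6) and is written 5′ to 3′ on the strand of the gene. Capitals mark matches, on either strand, to 3 motifs, namely TTCNNNGAA (the gamma-interferon activation site), the core of the interferon-stimulated response element (ISRE, a pair of GAAA blocks 2 bases apart) and GAGGAA (the core bound by the myeloid factor PU.1).
Fcgr4 promoter, chr1:171018676-171018975, plus strand: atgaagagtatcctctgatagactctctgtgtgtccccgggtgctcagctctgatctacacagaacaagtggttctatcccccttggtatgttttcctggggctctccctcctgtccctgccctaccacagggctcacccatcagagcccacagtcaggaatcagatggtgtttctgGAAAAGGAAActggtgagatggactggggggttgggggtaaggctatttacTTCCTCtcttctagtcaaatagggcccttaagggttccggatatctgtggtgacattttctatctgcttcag
Fcgr1 promoter, chr3:96293920-96294219, minus strand: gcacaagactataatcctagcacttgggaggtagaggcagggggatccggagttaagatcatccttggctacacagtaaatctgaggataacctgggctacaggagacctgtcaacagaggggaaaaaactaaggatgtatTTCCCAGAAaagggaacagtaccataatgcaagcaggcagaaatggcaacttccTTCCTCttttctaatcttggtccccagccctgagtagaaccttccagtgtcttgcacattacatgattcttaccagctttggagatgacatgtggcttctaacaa
Fcgr3 promoter, chr1:171059354-171059653, minus strand: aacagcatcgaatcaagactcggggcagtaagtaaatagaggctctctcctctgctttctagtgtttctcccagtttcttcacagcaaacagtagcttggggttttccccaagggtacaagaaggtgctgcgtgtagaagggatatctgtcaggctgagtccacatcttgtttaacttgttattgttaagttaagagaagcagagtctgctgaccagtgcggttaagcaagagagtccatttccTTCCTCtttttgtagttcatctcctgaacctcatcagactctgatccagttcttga
Fcgr2b promoter, chr1:170976022-170976321, minus strand: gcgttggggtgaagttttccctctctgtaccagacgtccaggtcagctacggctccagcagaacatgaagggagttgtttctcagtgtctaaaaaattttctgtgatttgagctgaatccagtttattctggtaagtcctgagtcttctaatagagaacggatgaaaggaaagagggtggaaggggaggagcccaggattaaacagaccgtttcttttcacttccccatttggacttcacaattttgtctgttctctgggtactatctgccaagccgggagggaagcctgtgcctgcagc

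The Fcgr4 promoter held an ISRE core 73 bases before the start and a PU.1 core at 22 bases before it. That of Fcgr1 held a gamma-interferon activation site at 109 bases and a PU.1 core at 55 bases before the start, and that of Fcgr3 a PU.1 core at 6 bases before it. None of the 3 motifs was found in this window of Fcgr2b, Fcer1g or Fcer2a, and Fcmr held a PU.1 core alone. Among 32851 promoters of the same length, 8.298% held the gamma-interferon activation site, 3.44% the ISRE core and 28.3% the PU.1 core, and the motif searched for on one strand was also counted on the other. A match describes letters and is not evidence of binding.

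All but 3 of the genes lie close together. Fcgr2b (ENSMUSG00000026656, chr1:170958617-170976547, minus strand), Fcgr4 (ENSMUSG00000059089, chr1:171018920-171029761, plus strand), Fcgr3 (ENSMUSG00000059498, chr1:171051174-171064935, minus strand) and Fcer1g (ENSMUSG00000058715, chr1:171229572-171234365, minus strand) span 276 kb of chromosome 1 in the GENCODE annotation of GRCm38. Fcmr (ENSMUSG00000042474) lies farther up the same chromosome, at chr1:130865669-130880791, Fcgr1 (ENSMUSG00000015947) at chr3:96282909-96293969 and Fcer2a (ENSMUSG00000005540) at chr8:3681737-3694175. Fcgr3 and Fcgr2b share stretches of coding sequence, but within the last 400 bases of their transcripts, where this 3′ chemistry reads, only 5 of the 31-base words of Fcgr3 occurred in Fcgr2b (0.657%), and no other pair shared any. Fcgr2b overlaps the antisense gene Gm38204, which was counted separately.

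The libraries held 5249 (PBS), 4879 (3-day WGP) and 4174 (7-day WGP) barcodes within the limits, and 5029, 4689 and 4035 remained after likely doublets were removed. The median barcode had 5755, 5754 and 8077 UMIs, and 9, 1 and 5 barcodes were shared by PBS and 3-day WGP, PBS and 7-day WGP, and both WGP libraries. Values are UMIs summed over the cells of a class in a library, as counts-per-million (CPM) of the UMIs of that class, or the ratio of such sums. With 1 library a group there is no replicate check and no test was made. The intervals in brackets are exact 95% intervals that cover counting error only, and a difference is called here only by size, as at least 2-fold with at least 20 CPM in either library. A run of 3 values goes in the order PBS, 3-day WGP, 7-day WGP.

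Clusters were formed without the Fc receptor genes and were named from other markers, and each name is short for cells like that type. The monocyte/macrophage-like class had 801, 749 and 1443 cells, and its marker list summed to 32519, 30264 and 32607 CPM, with all 9 markers detected in each library. It was not the same mix of cells in each library. Cluster 7, led by Pf4 and Mrc1, held 75.8% of it in PBS, cluster 6, led by Saa3 and Arg1, held 57.4% of it at 3 days and cluster 0, led by Ly6i and Cxcl9, held 72.8% of it at 7 days. Sex-linked transcripts were also spread unequally. Among its cells with either Xist or a chromosome Y transcript but not both, 99.2%, 13.4% and 49.6% had Xist (754, 75 and 565 cells, against 6, 483 and 573). Values for Xist cells are therefore given beside the class values.

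The IgG receptors were found in the myeloid classes (plot of the 7 genes by class). Fcgr1, the high-affinity IgG receptor, was at 196, 158 and 219.8 CPM in monocyte/macrophage-like cells and at most at 46.9 CPM in any other named class, in conventional dendritic cells (DCs) at 7 days. Fcgr3 was at 628, 384 and 545 CPM in monocyte/macrophage-like cells, at 191, 279 and 359 CPM in neutrophil-like cells and at 45.3, 62.7 and 77.1 CPM in NK-like cells. Fcgr4 was at 90.8, 233 and 369 CPM in monocyte/macrophage-like cells and at 80.2, 124 and 350.3 CPM in neutrophil-like cells. For both genes these classes stood above every other named class in every library, with intervals that did not overlap. The next in order were NK-like cells for Fcgr3 and, at 7 days, conventional DCs for Fcgr4 (25.4 CPM).

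Fcgr2b had a wider distribution. It was at 396, 458 and 390.2 CPM in monocyte/macrophage-like cells, at 170.1, 73.0 and 77.3 CPM in conventional DCs, at 76.0, 85.7 and 122 CPM in B cells, at 32.5, 56.7 and 51.8 CPM in neutrophil-like cells and at 24.9, 25.5 and 21.2 CPM in plasma cells. In plasmacytoid DCs it was at 10.7, 53.5 and 42.7 CPM, from 3, 27 and 14 UMIs. The order of the classes below monocytes and macrophages changed between libraries, since conventional DCs were above B cells in PBS (170.1 against 76.0 CPM) and below them at 7 days (77.3 against 122 CPM).

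**Figure D1:**
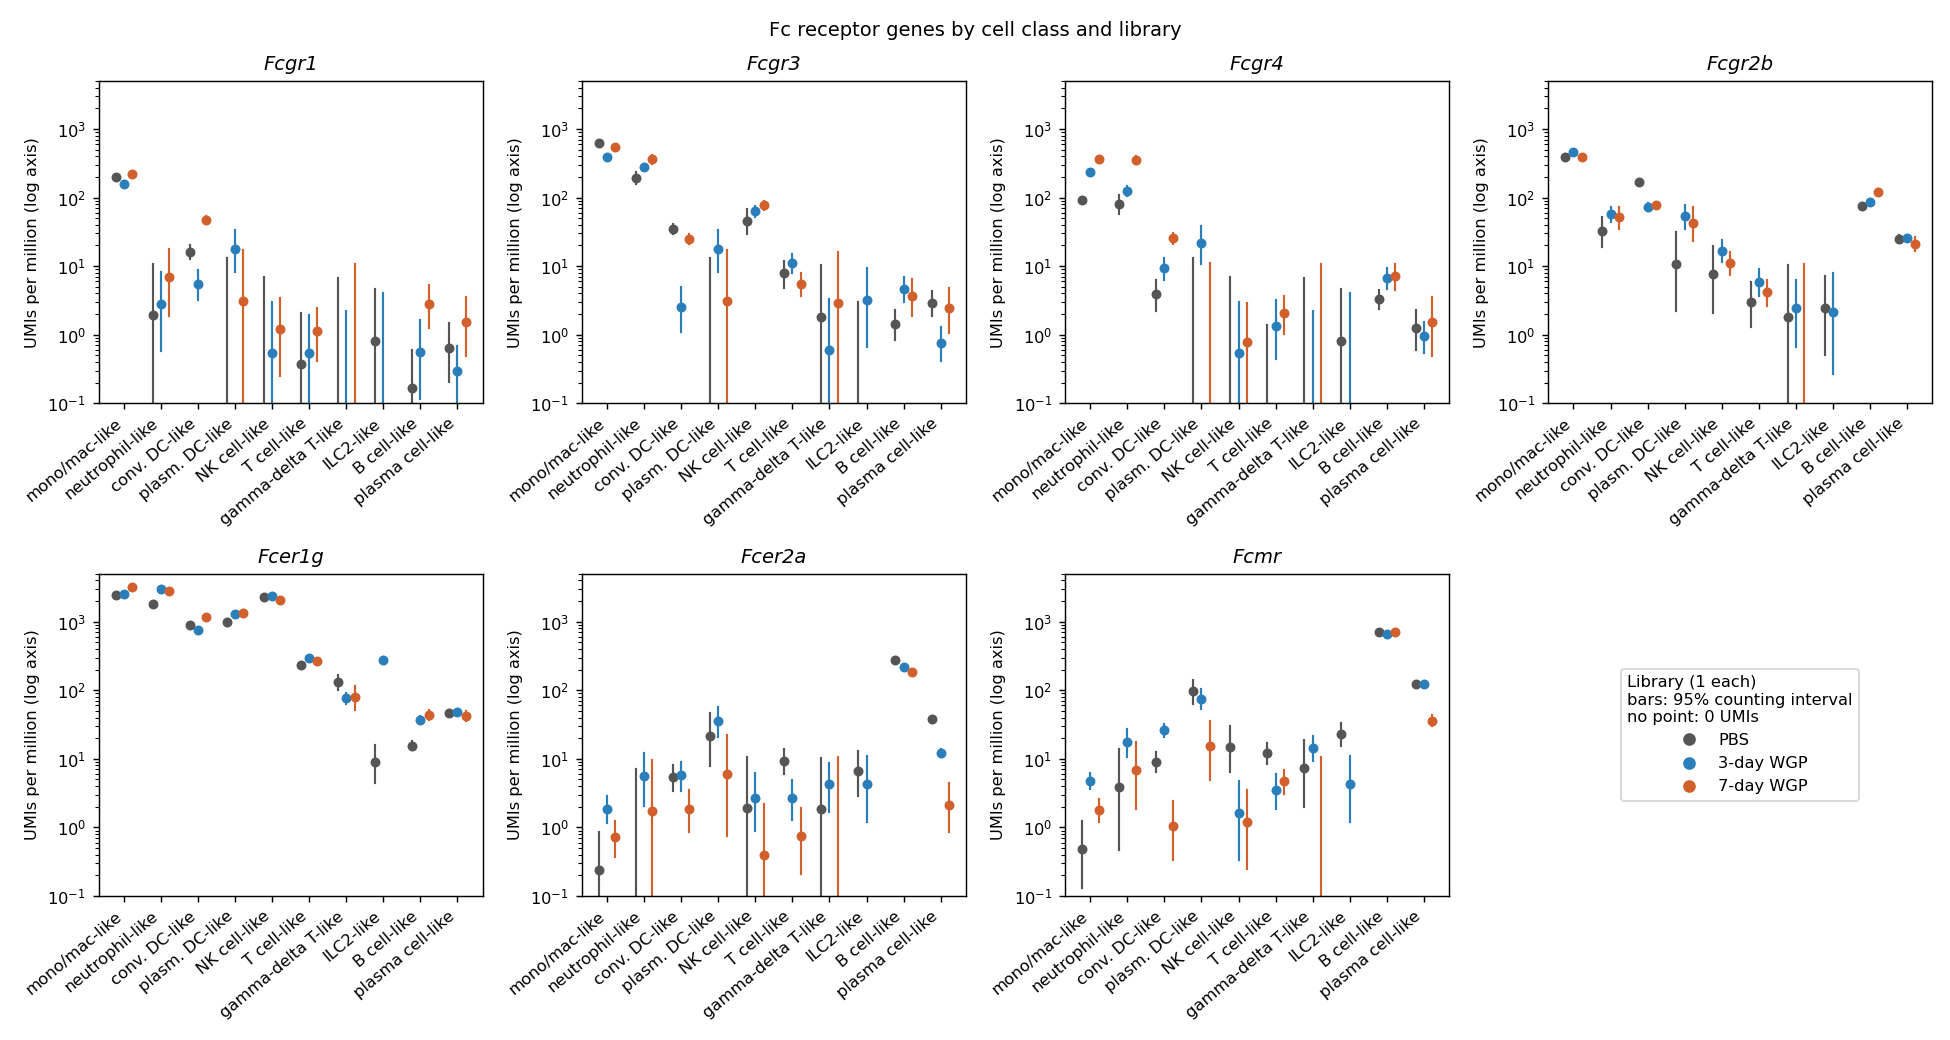
CPM (log axis) of the 7 Fc receptor genes in each cell class, with 1 point per library and bars for the 95% counting interval. The IgG receptors Fcgr1, Fcgr3 and Fcgr4 have their highest points in monocyte/macrophage-like cells, with Fcgr3 and Fcgr4 of neutrophil-like cells near them, and Fcer2a and Fcmr in B cells.

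The gamma chain was abundant in lymphoid as well as myeloid classes. Fcer1g was at 2448, 2496 and 3243 CPM in monocyte/macrophage-like cells, at 1822, 3029 and 2844 CPM in neutrophil-like cells and at 2274, 2349 and 2089 CPM in NK-like cells, which also use it to signal from natural cytotoxicity receptors. Plasmacytoid DCs (978, 1293 and 1359.9 CPM) and conventional DCs (906, 747 and 1158 CPM) followed. T cells had 229.8, 296 and 268 CPM, most of it in cluster 8, led by Xcl1, Ccl5 and Cd160 among others, at 550.1, 769 and 487 CPM, whereas clusters 9 and 12 had between 2.64 and 74.1 CPM. Gamma-delta T cells had 131, 76.2 and 78.9 CPM.

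One high value of the gamma chain came from a few cells. In the ILC2-like cluster, whose leading genes included the mast cell protease Cma1 besides Areg and Gata3, Fcer1g was at 9.03 CPM in PBS and 273 CPM at 3 days. Of the 252 UMIs at 3 days, 246 (97.6%) were in 13 of the 290 cells, those with a UMI of Ms4a2 or Fcer1a, which encode the other chains of the high-affinity IgE receptor. These 13 cells also held 742 UMIs of Cpa3 and 2643 of Cma1, both mast cell proteases, and 3 of them had a UMI of Gata3, against 242 of the other cells. Without them the level at 3 days was 6.93 CPM [2.54 to 15.1]. At 7 days this cluster had 11 cells.

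Free RNA may be part of the low levels. In barcodes of at most 100 UMIs, Fcgr4 was at 10.7, 79.4 and 150.4 CPM and Fcer1g at 752, 1295 and 1706 CPM, and acinar transcripts put the free share in lymphocytes at 1.05%, 1.61% and 0.909%. The Fcer1g level of B cells, 15.6, 37.3 and 43.9 CPM, was past 2-fold at both times against PBS, with 7.90, 20.8 and 15.5 CPM expected from free RNA alone. That estimate is rough and is not a floor. The ILC2-like cells without an IgE receptor chain had 6.93 CPM at 3 days, below it. The 9 monocyte/macrophage markers summed in the same B cells to 54.1, 114 and 218 CPM, and the part of such RNA or of attached cells in the Fcer1g values was not tested. All 29 activating receptor UMIs of plasmacytoid DCs at 3 days were in 1 of 75 cells.

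In monocyte/macrophage-like cells Fcgr4 was the only one of the 5 members at 20 CPM or more that was past 2-fold against PBS, and it was higher at both times. Its level was 2.57-fold that of PBS at 3 days (log2 1.36 [1.24 to 1.48]) and 4.06-fold at 7 days (log2 2.02 [1.91 to 2.13]), from 761, 2635 and 6149 UMIs. In the same class 5.89% of the 6229 genes tested at 3 days and 6.58% of the 6174 tested at 7 days were at least 2-fold higher, and 6.2% and 9.88% at least 2-fold lower. In Xist cells alone Fcgr4 was at 89.4 [83.0 to 96.1], 206 [180 to 234] and 345 [331 to 359.6] CPM. Within the 7-day library it was at 345 CPM in Xist cells and 377 CPM in cells with Y transcripts.

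More cells had the transcript as well. After each cell was thinned to 1000 UMIs, Fcgr4 was detected in 8.86% [6.99 to 11.05], 19.1% [16.3 to 22.1] and 27.5% [25.2 to 29.9] of monocyte/macrophage-like cells, against 0%, 0% and 0.291% of T cells, which lack the receptor. Without thinning the shares were 40.7%, 73.7% and 79.7%, at median depths of 9994, 13971 and 10675 UMIs, and those of T cells 0%, 0.767% and 1.16% at 3631, 4922 and 6250 UMIs. No Fcgr4 UMI was seen in the 546 T cells of PBS, which allows a level of up to 1.12 CPM.

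The other activating receptors differed less. Fcgr3 was lower at 3 days (log2 −0.71 [−0.77 to −0.65]) and at 7 days (log2 −0.20 [−0.25 to −0.15]), and Fcgr1 was lower at 3 days (log2 −0.31 [−0.41 to −0.22]) and higher at 7 days (log2 0.17 [0.08 to 0.25]). Scaling the class sums with TMM factors, which added 0.13 to every log2 change at 3 days and 0.26 at 7 days, turned the 7-day value of Fcgr3 to 0.05. In Xist cells Fcgr3 was at 632, 464 and 563 CPM and Fcgr1 at 196, 183 and 220.5 CPM. Fcer1g was above PBS by 0.03 at 3 days and by 0.41 at 7 days on the log2 scale. In Xist cells it was at 2431, 2158 and 3178 CPM, so that the direction at 3 days turned (log2 −0.17), as it did with an upper limit of 10150 UMIs per barcode (log2 −0.12).

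Fcgr2b, the inhibitory receptor, was near its PBS level. It was at 396 [383 to 410], 458 [446 to 471] and 390.2 [381 to 399.8] CPM, a log2 change of 0.21 [0.15 to 0.27] at 3 days and −0.02 [−0.08 to 0.04] at 7 days. In Xist cells it was at 399.7, 426 and 364 CPM. The share of thinned cells with a UMI was 32.1%, 33.5% and 31.3%, with intervals that overlapped.

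The balance of the receptors lay on opposite sides of PBS at the 2 times. The ratio of activating UMIs (Fcgr1, Fcgr3 and Fcgr4) to Fcgr2b UMIs was 2.31 [2.22 to 2.41] in PBS, 1.69 [1.64 to 1.75] at 3 days and 2.90 [2.82 to 2.99] at 7 days. Against PBS this was a log2 change of −0.45 [−0.52 to −0.37] and 0.33 [0.26 to 0.40]. Transcripts are captured unequally, so that the ratio itself is not a ratio of molecules and only its differences are compared. In Xist cells the ratios were 2.29 [2.20 to 2.39], 2.00 [1.79 to 2.24] and 3.101 [2.96 to 3.25], a smaller difference at 3 days, and cells with Y transcripts had 1.65 [1.58 to 1.72] at 3 days and 2.73 [2.62 to 2.85] at 7 days.

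The composition of the activating part also differed. Fcgr3 made up 68.6% of the activating UMIs in PBS, 49.6% at 3 days and 48.1% at 7 days, and Fcgr4 9.93%, 30.1% and 32.5%. The part of Fcgr1 was 21.4%, 20.3% and 19.4%. Fcgr4 held a larger part of the activating transcripts at both times after WGP, and Fcgr3 a smaller one.

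Neutrophil markers summed to 149, 468 and 187 CPM in this class. Fcgr4 was at 80.2, 124 and 350.3 CPM in neutrophil-like cells and at 90.8, 233 and 369 CPM in the class, values that were close in PBS and at 7 days. Acinar markers summed to 618, 87.8 and 78.9 CPM, B cell markers to 51.3, 78.2 and 30.99 CPM and T cell markers to 6.45, 25.1 and 14.1 CPM. The part of these in the receptor levels was not tested.

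The class was next divided into 7 sub-clusters, to give the levels in narrower groups of cells. Sex was not separated within the sub-clusters. In the class, 99.2%, 13.4% and 49.6% of the cells assigned by sex-linked transcripts had Xist. There were 4 sub-clusters with at least 20 cells in PBS and in a WGP library. Among them Fcgr4 was past 2-fold at 3 days only in the cells led by Mucl1 and Retnla. At 7 days it was past 2-fold there and in Ly6C-high monocytes. In Ly6C-low monocytes and resident macrophages it was higher than in PBS, short of 2-fold. The Mucl1/Retnla-led group (268, 107 and 47 cells) matched no marker list, and a change in its own mix of cells between libraries was not tested. Fcgr4 was at 125 [113 to 138], 344 [311 to 379] and 501 [439 to 569] CPM there. In Ly6C-low monocytes (115, 41 and 103 cells) it was at 98.5, 157 and 182 CPM. In resident macrophages (335 and 55 cells in PBS and at 3 days) it was at 48.4 and 94.6 CPM, a log2 change of 0.97 [0.45 to 1.45].

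Ly6C-high monocytes had no such difference at 3 days. With 25, 139 and 373 cells, Fcgr4 was at 193, 196 and 391 CPM, so that the level at 3 days was within counting error of that in PBS (log2 0.02 [−0.41 to 0.49]) and that at 7 days was above it (log2 1.02 [0.61 to 1.47]). The 25 PBS cells limit this comparison. The sub-clusters with 10 and 16 cells in PBS had 244 CPM at 3 days and 496 CPM at 7 days for the Arg1 macrophages (352 and 245 cells), and 154 and 305 CPM for the inflammatory macrophages led by Ly6i and Cxcl9 (43 and 663 cells). Every sub-cluster with at least 20 cells in both WGP libraries had a higher level at 7 days than at 3 days, although in Ly6C-low monocytes the interval of the difference included 0 (log2 0.21 [−0.20 to 0.64]). The 7-day level was higher than that at 3 days by 0.99 in inflammatory, 1.03 in Arg1, 0.997 in Ly6C-high and 0.54 in the Mucl1/Retnla-led cells on the log2 scale.

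**Figure D2:**
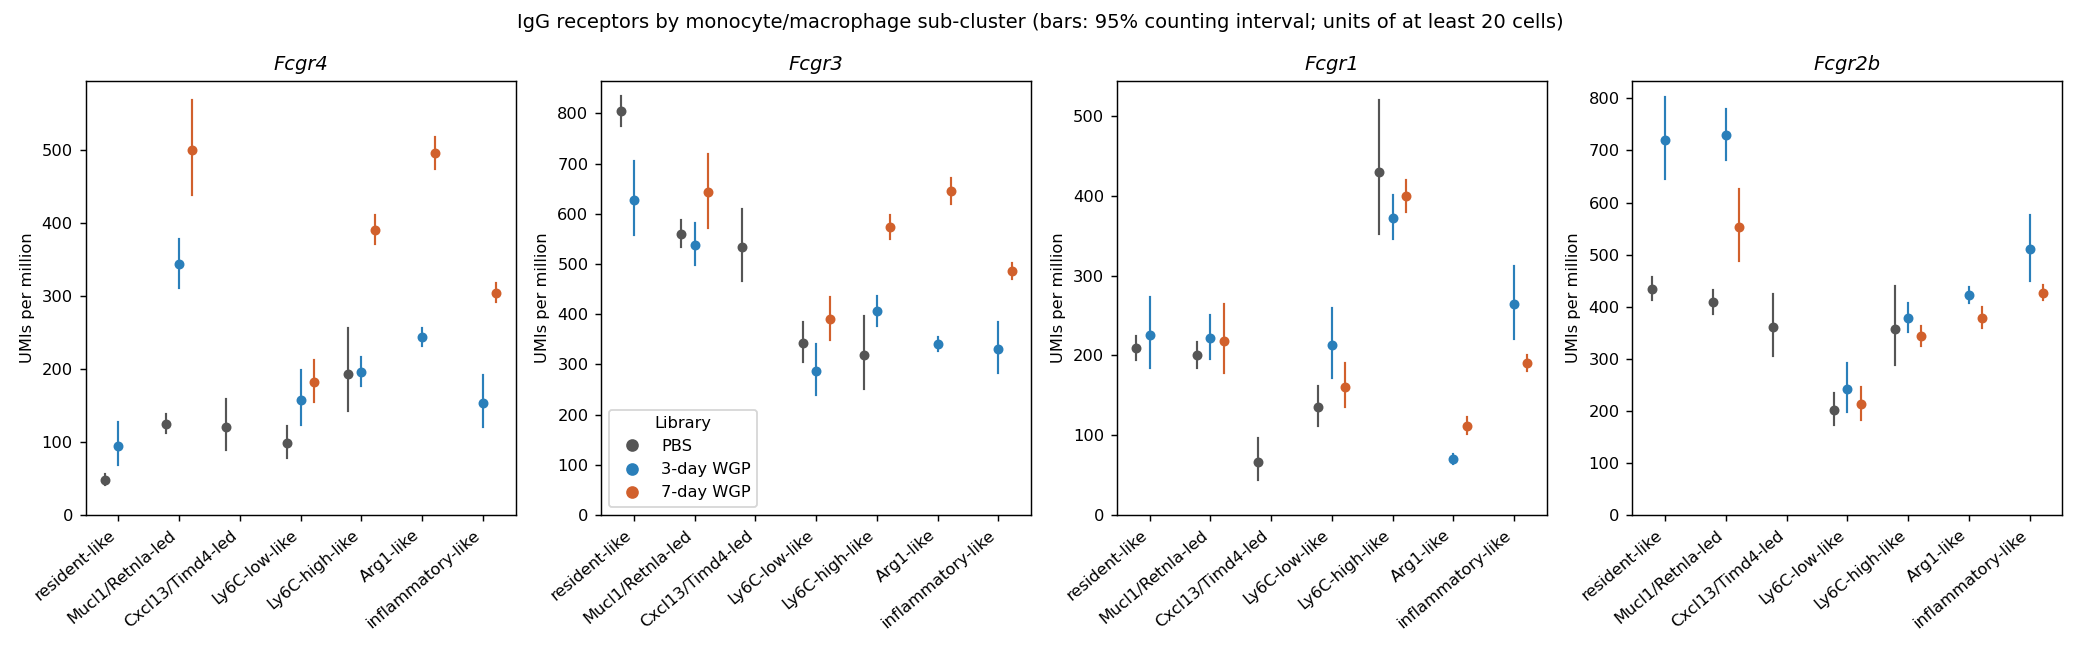
CPM of Fcgr4, Fcgr3, Fcgr1 and Fcgr2b in the sub-clusters of monocyte/macrophage-like cells, with 1 point per library where at least 20 cells were present and bars for the 95% counting interval. Fcgr4 in the Mucl1/Retnla-led cells goes from 125 in PBS to 344 at 3 days and 501 at 7 days, and Fcgr2b of resident-like cells from 434 in PBS to 720.3 at 3 days.

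The inhibitory receptor also differed within sub-clusters. Fcgr2b was at 434 CPM in PBS and 720.3 CPM at 3 days in resident macrophages (log2 0.73 [0.55 to 0.90]), and at 409, 730 and 554 CPM in the Mucl1/Retnla-led cells. Its change from PBS had an interval that included 0 in Ly6C-high (358, 378 and 343 CPM) and Ly6C-low monocytes (202, 242 and 213 CPM). Fcgr3 was highest among the sub-clusters in PBS resident macrophages, at 804 CPM, against 628 CPM at 3 days, and it was between 286 and 406 CPM in both kinds of monocyte except at 7 days in Ly6C-high cells (573 CPM). Fcgr1 was at 373 to 430.4 CPM in Ly6C-high monocytes in all libraries and at 70.3 and 111 CPM in Arg1 macrophages at 3 and 7 days. The smallest sub-cluster, led by Cxcl13 and Vsig4 and without a name (32 and 12 cells in PBS and at 3 days, none at 7 days), had 66.2 CPM of Fcgr1, 534 CPM of Fcgr3, 120.1 CPM of Fcgr4 and 360.3 CPM of Fcgr2b in PBS. Outside the class, 58 PBS cells of the unnamed cluster 23, led by Retnla and Ear2, had 316 CPM of Fcgr3 and 359.7 CPM of Fcgr2b but 10.6 CPM of Fcgr4.

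Within sub-clusters the ratio at 3 days was below PBS in resident macrophages and Mucl1/Retnla-led cells, and in monocytes its change had an interval that included 0 (plot of the ratio). It was 2.44 in PBS and 1.32 at 3 days in resident macrophages (log2 −0.89 [−1.11 to −0.67]) and 2.17 and 1.51 in the Mucl1/Retnla-led cells (log2 −0.52 [−0.68 to −0.36]), while it was 2.63 and 2.58 in Ly6C-high monocytes (log2 −0.03 [−0.40 to 0.35]) and 2.86 and 2.72 in Ly6C-low monocytes (log2 −0.07 [−0.48 to 0.33]). The interval for resident macrophages did not overlap those of either kind of monocyte, and the difference itself was not tested. Sex was not separated in these sub-cluster ratios. At 7 days the ratio was 3.98 in Ly6C-high monocytes, above PBS (log2 0.60 [0.23 to 0.96]), and 2.46 and 3.45 in the Mucl1/Retnla-led cells and the Ly6C-low monocytes, with intervals of the change that included 0. Arg1 macrophages had 1.55 [1.48 to 1.63] at 3 days and 3.30 [3.12 to 3.50] at 7 days, and inflammatory macrophages 1.47 and 2.30.

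**Figure D3:**
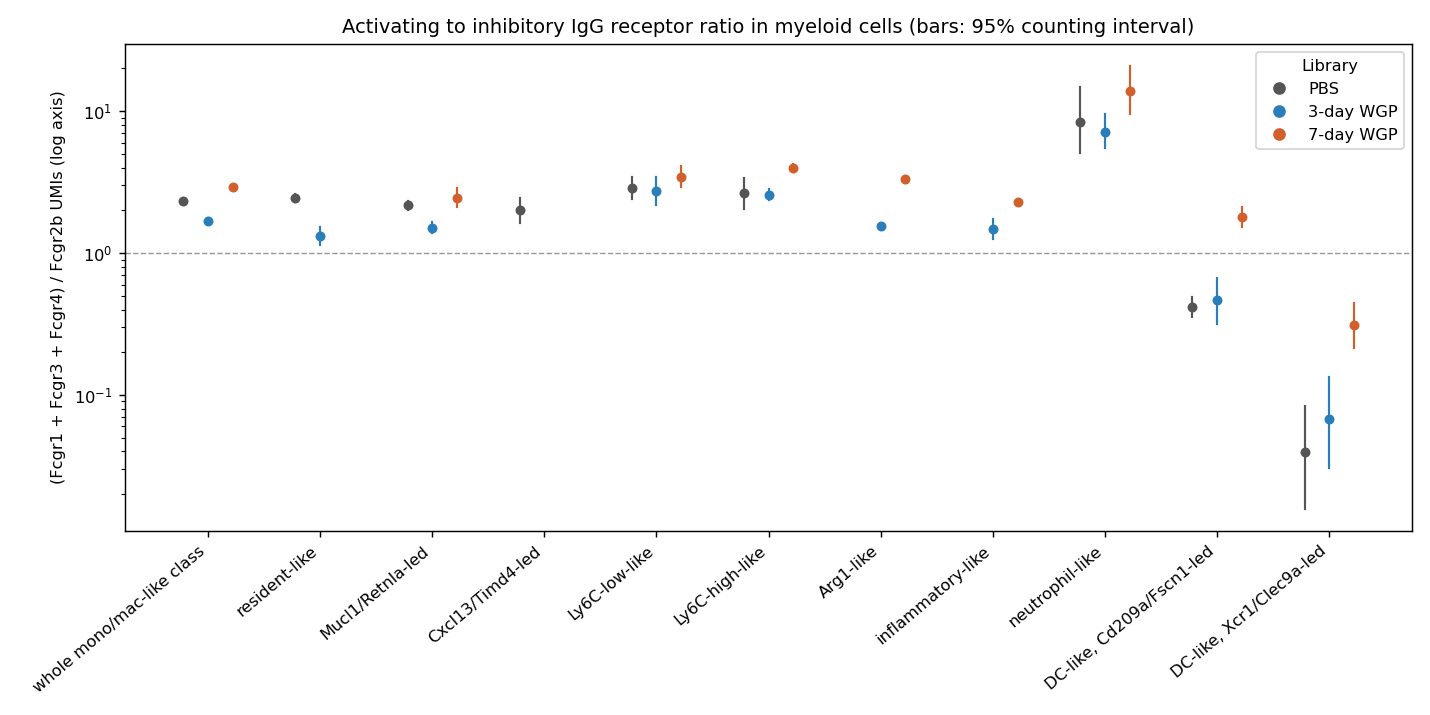
Ratio of Fcgr1, Fcgr3 and Fcgr4 UMIs to Fcgr2b UMIs (log axis) in myeloid classes, clusters and sub-clusters, with 1 point per library where at least 20 cells were present and bars for the 95% counting interval. The whole monocyte/macrophage-like class is at 2.31, 1.69 and 2.90, neutrophil-like cells are above it and both groups of DC-like cells below it.

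Conventional DCs had fewer activating than inhibitory UMIs in PBS. Their ratio was 0.324 [0.277 to 0.377] in PBS, 0.236 [0.172 to 0.318] at 3 days and 1.26 [1.10 to 1.45] at 7 days, a log2 change of −0.46 [−0.94 to 0.02] and 1.959 [1.67 to 2.25]. Over other choices of cells and clusters the 3-day change ranged from −0.81 to 2.75, so that it has no settled direction, and the 7-day change from 1.51 to 2.97. Both clusters of the class had higher ratios at 7 days. It was 0.420, 0.464 and 1.78 in cluster 13, led by Cd209a and by Fscn1, a gene of mature DCs, and 0.0398, 0.0682 and 0.311 in cluster 16, led by Xcr1 and Clec9a, the markers of cross-presenting DCs. The values of cluster 16 rest on 7, 9 and 41 activating UMIs, with 61.0% of those at 7 days in 5 cells.

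In cluster 13 (166, 115 and 239 cells) Fcgr2b was at 236 [216 to 257], 74.8 [60.7 to 91.3] and 84.7 [74.3 to 96.1] CPM, and Fcgr1 at 29.1, 12.3 and 77.2 CPM. Fcgr4 was at 6.37, 17.0 and 35.1 CPM there and Fcgr3 at 63.7, 5.40 and 38.6 CPM, from 140, 7 and 109 UMIs. Monocyte/macrophage markers summed to 2959, 1585 and 2241 CPM in this cluster, and 65, 15 and 102 cells held the 218, 45 and 426 activating UMIs, with 30.3%, 64.4% and 18.3% of them in 5 cells. Flt3, the DC growth factor receptor, was at 106, 144 and 101 CPM. The part of monocyte-derived cells in these values was not tested.

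Neutrophils carry mainly activating receptors. Their ratio was 8.41 [5.07 to 14.8], 7.16 [5.47 to 9.53] and 13.8 [9.54 to 20.8], from 83, 225 and 187 cells, and only 17, 61 and 30 UMIs of Fcgr2b. Fcgr4 was above PBS at 3 days (log2 0.63 [0.12 to 1.17]) and 7 days (log2 2.13 [1.64 to 2.64]). Within cluster 14 (49, 212 and 181 cells) it was at 171, 149 and 423 CPM, so that the value at 3 days was no longer above PBS (log2 −0.20 [−0.86 to 0.53]) and that at 7 days was (log2 1.31 [0.67 to 2.02]). The other PBS cells were 34 in cluster 25, led by the granule genes Camp, Ngp and Ltf, with 50.7 CPM of Fcgr4 and a ratio of 4.93. In cluster 14 the ratio was 24.7 [8.12 to 122], 7.92 [5.87 to 10.9] and 14.7 [9.98 to 22.7], with only 3 Fcgr2b UMIs in PBS. At 7 days it was thus not above PBS in that cluster (log2 −0.74 [−2.50 to 1.01]), unlike in the class (log2 0.72 [−0.18 to 1.62]), and both intervals included 0.

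NK-like cells had Fcgr3 as their IgG receptor. It was at 45.3, 62.7 and 77.1 CPM, from 24, 116 and 194 UMIs, a log2 change of 0.47 [−0.17 to 1.17] at 3 days and 0.77 [0.15 to 1.44] at 7 days. After thinning it was detected in 2.78%, 5.84% and 9.32% of NK-like cells and in 0.916%, 1.38% and 0.291% of T cells. The log2 change of their gamma chain was 0.05 at 3 days and −0.12 at 7 days.

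Fcer2a and Fcmr were genes of the B lineage (plot of B-lineage clusters). Fcmr, which binds IgM and supports B cell survival, was at 704 [689 to 720], 669.9 [648 to 692] and 703 [675 to 733] CPM in B cells, and at 0.477, 4.78 and 1.80 CPM in monocyte/macrophage-like cells. Fcer2a was at 273 [263 to 282], 219 [206 to 232] and 181 [167 to 197] CPM, and at 0.239, 1.86 and 0.719 CPM in monocyte/macrophage-like cells. None of these differences between libraries reached 2-fold, and Fcer2a was lower at both times (log2 −0.32 [−0.42 to −0.22] and −0.59 [−0.72 to −0.46]). The 39 acinar-like barcodes of PBS, whose next best marker list was that of B cells, had 603 CPM of Fcmr and 225 CPM of Fcer2a, and plasmacytoid DCs had 96.0, 75.3 and 15.2 CPM of Fcmr.

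The B cell clusters differed in Fcer2a. The clusters 1 and 3, led by Ighd, had 448 and 449 CPM in PBS, while the B-1-like cluster 2 had 83.5 CPM. CD23 is known to be nearly absent from B-1 cells. Clusters 1 and 3 scored too low on the list of follicular B cell markers to take its name (mean log2 fold 0.58 and 0.92). At 3 days Fcer2a was at 481 and 516 CPM in clusters 1 and 3, no lower than in PBS, with cluster 2 making up 358 of 833 B cells against 562 of 1930 in PBS. At 7 days it was lower than in PBS in all 3 clusters, at 320.2, 374 and 35.9 CPM. The lower level at 3 days was seen in the whole class and in cluster 2 (69.96 CPM, log2 −0.25 [−0.48 to −0.03]), not in the Ighd-led clusters.

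**Figure D4:**
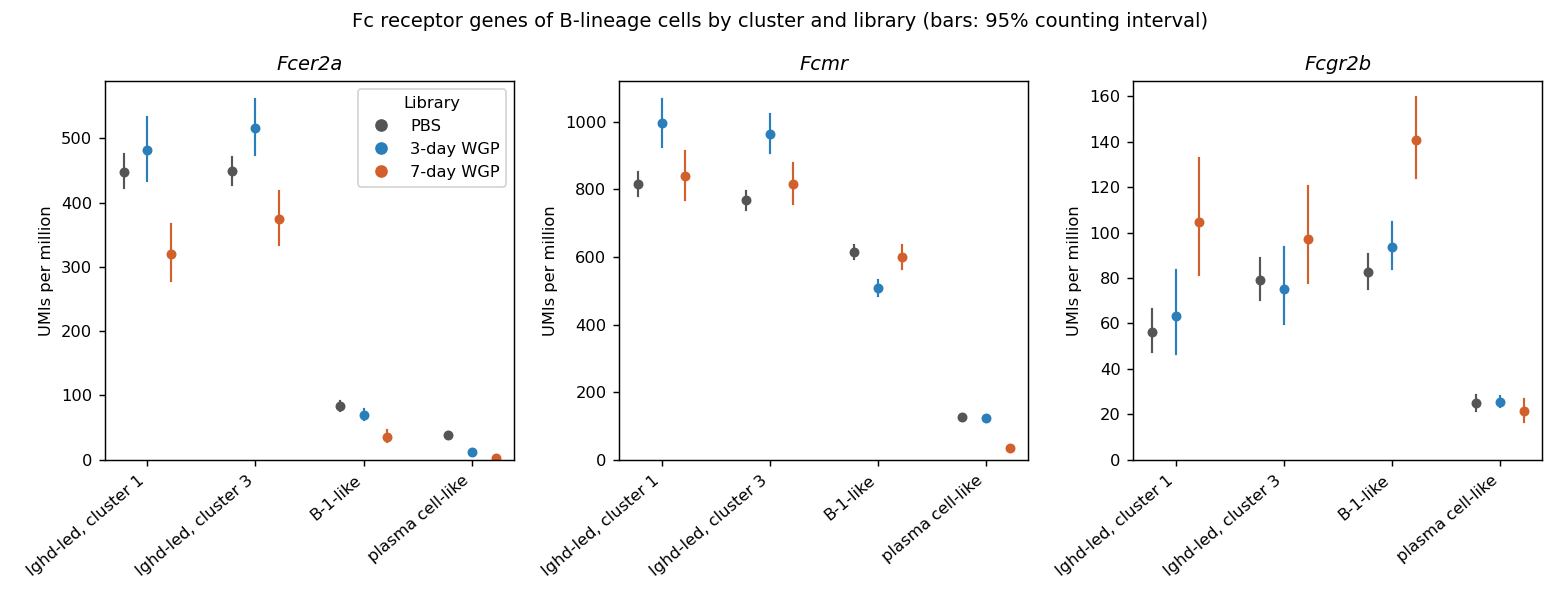
CPM of Fcer2a, Fcmr and Fcgr2b in the 3 B cell clusters and in plasma cells, with 1 point per library and bars for the 95% counting interval. Fcer2a of the Ighd-led clusters is at 448 and 449 in PBS and at 481 and 516 at 3 days, against 83.5 and 69.96 in the B-1-like cluster.

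Fcmr and Fcgr2b varied less between these clusters. Fcmr was at 816, 995 and 839 CPM in cluster 1, at 767, 964 and 815 CPM in cluster 3 and at 615, 508 and 599 CPM in cluster 2. Fcgr2b, the inhibitory receptor that restrains the B cell receptor, was at 56.3, 63.1 and 105 CPM in cluster 1, at 79.1, 75.4 and 97.3 CPM in cluster 3 and at 82.6, 93.9 and 141 CPM in cluster 2. In the class it was higher at 7 days, short of 2-fold (log2 0.68 [0.51 to 0.86]). In B cells 1.8% of 5319 genes were at least 2-fold higher at 3 days and 1.23% of 5280 at 7 days, and 0.207% and 0.284% were at least 2-fold lower.

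Among B cells with sex-linked transcripts, 26.6%, 25.2% and 29.9% had Xist (323, 123 and 109 cells). In those Xist cells the log2 changes of Fcer2a were 1.10 and 0.95, opposite to those of the class, and the 7-day change of Fcgr2b was −0.13. Sex and the mix of B cell clusters were not separated here.

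Transcripts of Fcmr, Fcer2a and Fcgr2b were also counted in plasma cells. Fcmr was at 125, 124 and 35.8 CPM and Fcer2a at 37.8, 12.2 and 2.12 CPM in 251, 547 and 79 cells, so that Fcer2a was 3.11-fold lower at 3 days and 17.8-fold lower at 7 days, from 299, 206 and 7 UMIs. Free RNA held 56.8, 35.8 and 23.9 CPM of Fcer2a in these libraries, which at the free share in lymphocytes gives 0.596, 0.576 and 0.217 CPM. The free share in plasma cells was not estimated, and the part of B cells in these values was not tested. Fcgr2b was at 24.9, 25.5 and 21.2 CPM.

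Transcripts of the heavy chains of the antibodies that these receptors bind differed between the plasma cells of the libraries, and antibody itself was not measured. Ighm was at 101626, 112166 and 142211 CPM. Of the IgG chains, Ighg2c was at 3175, 364 and 5.76 CPM and Ighg3 at 1329.6, 12.8 and 1.82 CPM, while Ighg2b was at 2094, 1099.6 and 9012 CPM. Ighg1 was at 1036 CPM in PBS, at 1.004 CPM at 3 days and had no UMI at 7 days. With 79 plasma cells at 7 days, such values can rest on a few cells, and immunoglobulin chains share sequence that the counting may split. Free RNA held 410, 361 and 2.15 CPM of Ighg2c and 99.9, 23.3 and 3.23 CPM of Ighg3, and its part in the plasma cell values was not tested.

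The genes around the receptors were followed in monocyte/macrophage-like cells with a list of 41 genes. At 3 days 26 were measured at 20 CPM or more, with 4 at least 2-fold higher and 2 lower, and at 7 days 27, with 4 higher and 3 lower. Over all genes tested the shares were 5.89% higher and 6.2% lower at 3 days and 6.58% and 9.88% at 7 days, so that the counts of lower genes were near those shares. The median log2 change of the list was 0.16 and 0.18, beside −0.04 and −0.13 over all genes tested.

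The higher genes were mostly other receptors that signal through the gamma chain (plot of pathway genes). Clec4e (Mincle), a receptor for fungal and mycobacterial glycolipids, was at 21.8, 659 and 609 CPM and its partner Clec4d at 34.3, 294 and 259 CPM. Clec4n (Dectin-2), which binds fungal mannans, was at 51.8, 94.2 and 179 CPM and passed 2-fold at 7 days only, and Pira2 was at 47.2, 113 and 93.7 CPM and passed it at 3 days, with a fold of 1.99 at 7 days. Of the kinases and adaptors, 1 was higher at each time, the Src-family kinase Fgr, at 79.3, 173 and 172 CPM. Syk was at 153, 228 and 225 CPM.

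**Figure D5:**
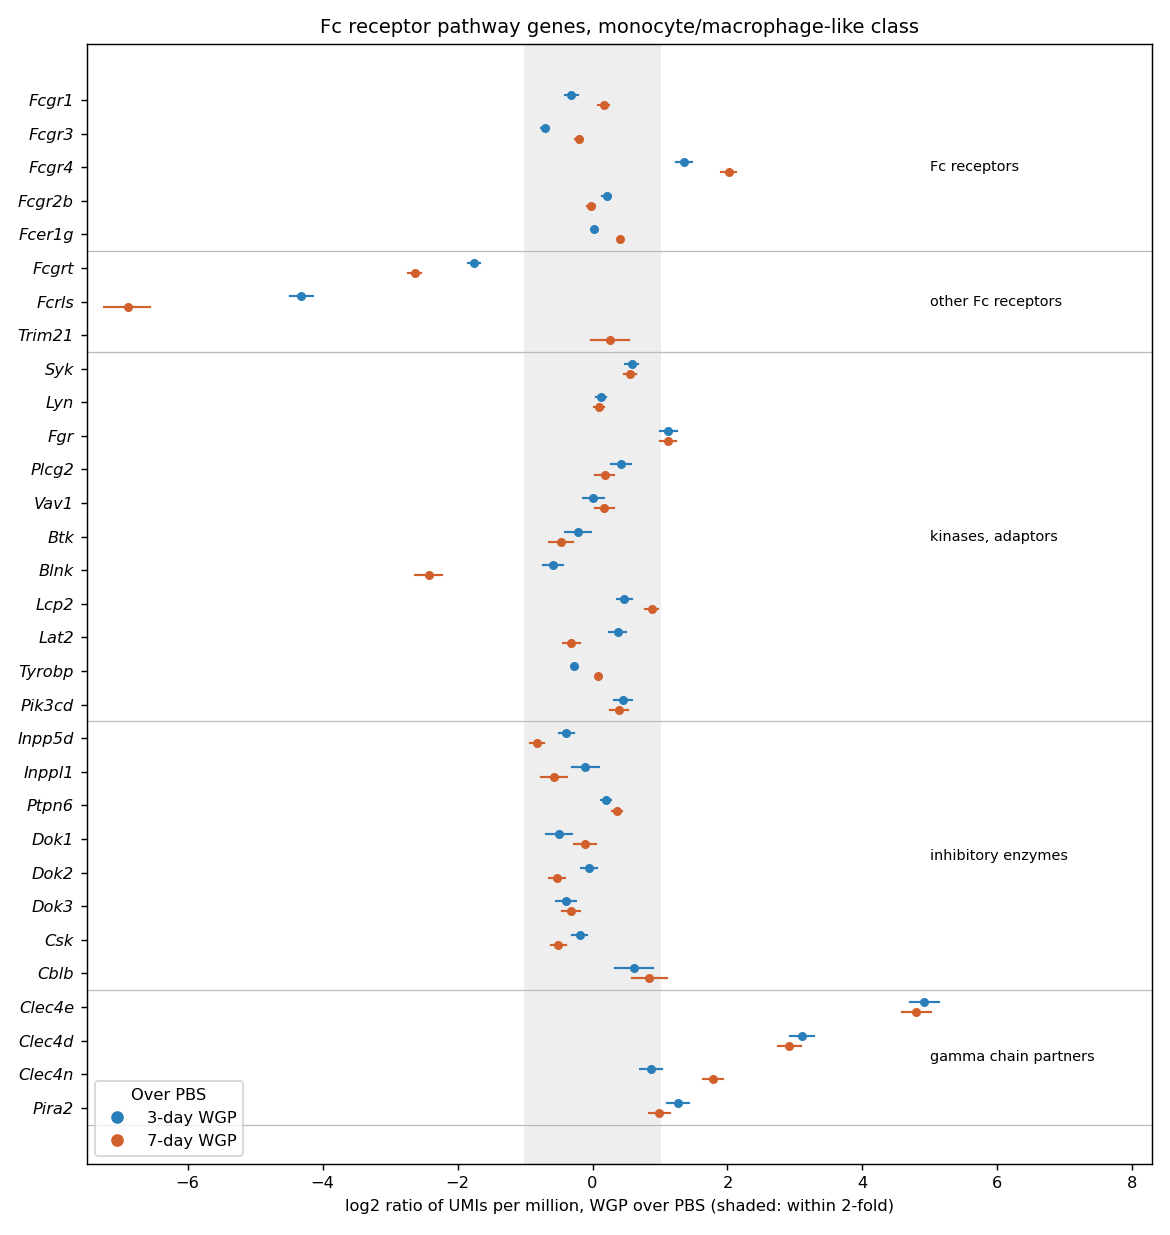
Log2 ratio of CPM in monocyte/macrophage-like cells, 3-day or 7-day WGP over PBS, for the Fc receptors and pathway genes with at least 20 CPM, except 1 not reported here, with bars for the 95% counting interval and the range within 2-fold shaded. Clec4e, Clec4d and Fcgr4 lie to the right of the shaded range at both times, and Fcrls and Fcgrt to the left.

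Fcgrt and Fcrls were the genes lower at both times. Of the 11 other Fc receptors and receptor-like genes on the list, 2 were measured at 20 CPM or more at 3 days and 3 at 7 days. Fcgrt, the neonatal receptor that recycles IgG, was at 435, 129 and 70.1 CPM (3.38-fold lower at 3 days and 6.20-fold at 7 days), and Fcrls at 527, 26.5 and 4.44 CPM. The mix of the class differed as well, with resident macrophages at 41.8%, 7.34% and 0.832% of it. Levels of the listed genes were not split by sub-cluster, so that lower levels within cells and a different mix of cells cannot be told apart here. The adaptor Blnk, at 90.1, 60.0 and 16.7 CPM, was past 2-fold at 7 days. All 8 inhibitory enzymes and adaptors stayed within 2-fold at both times, and Inpp5d, which encodes the phosphatase SHIP that Fcgr2b recruits, was at 166, 127 and 94.2 CPM. In B cells 0 of 21 measured genes of the list were past 2-fold at 3 days and 1 of 21 at 7 days. That gene was Fcrl5, a receptor of innate-like B cells (23.2 and 53.4 CPM in PBS and at 7 days). Over all genes tested in B cells, 1.8% were higher and 0.207% lower at 3 days, and 1.23% and 0.284% at 7 days. Counts this small do not set the list apart from those shares.

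The genes most like each receptor were sought over 46 units of class, sub-cluster and library with at least 30 cells, by the Pearson correlation of log2(CPM + 10) among genes reaching 100 CPM. The units share libraries and some share cells, and the correlations are given as a description. Fcgr4 was most like Cd14 (0.96), Slc11a1 (0.96) and Hmox1 (0.96), Fcgr3 like Itgam (0.96), Slc11a1 (0.95) and Xdh (0.95), and Fcgr1 like Ms4a6d (0.98), Clec4a1 (0.96) and Clec4a3 (0.96). Fcgr2b was most like Renbp (0.94), Lgmn (0.94) and Apobec1 (0.92). Fcer1g was most like Tyrobp (0.94), the other adaptor of this kind, followed by Hpcal1 (0.93) and Map7d1 (0.92). Fcer2a was most like the B cell factor Pax5 (0.97), Cxcr5 (0.97) and Scd1 (0.97), and Fcmr like Ms4a1 (0.99), Ebf1 (0.98) and Cd79a (0.98). Among the members themselves the correlation was 0.95 between Fcer2a and Fcmr and 0.92 between Fcgr3 and Fcgr4.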

How the data were processed

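The deposited values were UMI counts per gene and barcode, made by the authors with Cell Ranger 3.1.0 on mm10 from 10x 3′ v3.1 libraries, neither normalized nor restricted to cells. Seurat is also named in the submitters' processing notes. Barcodes with at least 1000 UMIs and at most 30% mitochondrial UMIs were used (440, 206 and 347 removed over the latter limit). Scrublet (scanpy 1.11.5) marked 0, 0 and 2 doublets by its own threshold and did not work, so the highest scores were removed up to 0.8% per 1000 barcodes (220, 190 and 139 barcodes). Cells of all libraries were clustered in Seurat 5.3.0 (R 4.3.3, sctransform 0.4.2, 30 principal components, resolution 0.8), with 30 Fc receptor and pathway genes left out of the 3000 variable genes. Clusters took a name with a mean log2 fold of a marker list of at least 1, 3 or more of its markers raised and a lead of 0.5 over the next list, and monocyte/macrophage-like cells were clustered again at resolution 0.4. Clusters without a name held 409, 113 and 212 cells, and a share that differs from the study's may come from these rebuilt names. Of the per-sample value columns, 0 were left unused.

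Values were CPM of UMIs summed per class and library, with exact Poisson intervals, ratios with exact conditional binomial intervals (normal approximation for the change of a ratio of ratios) and shares with exact binomial intervals (scipy 1.17.1), and no test was made. A count of 0 allows up to 3 counts. Scripts were tested on simulated data. The genes named are all 7 members in classes with at least 20 cells, pathway genes past 2-fold (up to 6 a direction and time), the 3 genes most like each member and the immunoglobulin heavy chains, and further genes were named after their values were seen. The members and lists were chosen with earlier results of these data known, and 1 gene of the pathway list is counted but not reported here.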

Additional observations from a re-analysis of the deposited data

Results flagged for a closer look

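In 5 results the values at 3 and 7 days lay on opposite sides of PBS, with both counting intervals excluding 0. Both contrasts share the PBS library, there was 1 library at each time, and the difference between the times was not tested.

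The activating to inhibitory ratio of monocyte/macrophage-like cells was below PBS at 3 days (log2 −0.45) and above it at 7 days (log2 0.33). Fcgr1 of the same class had the same order (log2 −0.31 and 0.17), but in Xist cells it was at 196 [186 to 206] CPM in PBS and 183 [158 to 209.9] CPM at 3 days, with overlapping intervals. In conventional DCs Fcgr1 was below PBS at 3 days and above it at 7 days (log2 −1.58 and 1.54), from 66, 17 and 225 UMIs, and Fcer1g likewise (log2 −0.28 and 0.35). Fcmr, a gene of B cells, went the other way in conventional DCs (log2 1.53 and −3.12), from 37, 82 and 5 UMIs. The levels of these 3 genes in conventional DCs were not recomputed under other choices of cells. At 3 days 5 cells held 53.7% of the 54 activating receptor UMIs of that class.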

How the results depend on the processing

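No paired analysis was possible because each group has 1 library, and for the same reason no replicate could be left out. Of 381 recomputed values, 295 stayed within the interval, or within 1.5 times the count, of the value given above, and 10 turned a change whose own interval excluded 0. No alternative turned the direction of Fcgr4 or of the activating to inhibitory ratio in monocyte/macrophage-like cells. An upper limit of 10150 UMIs per barcode, the knee of the ranked totals, left 414, 203 and 639 of these cells and gave log2 changes of the ratio of −0.60 and 0.49, of Fcgr4 of 1.17 and 1.78, and 2 pathway genes higher and 1 lower at 3 days. It turned the 3-day changes of Fcer1g to −0.12, and in B cells of Fcgr2b to −0.033 and of Fcmr to 0.18. Restriction to Xist cells gave −0.20 and 0.43 for the ratio and 1.201 for Fcgr4 at 3 days, and turned Fcer1g at 3 days to −0.17, Fcer2a of B cells to 1.10 and 0.95 and Fcgr2b of B cells at 7 days to −0.13. TMM factors gave 1.49 and 2.28 for Fcgr4, 0.052 for Fcgr3 at 7 days and 7 pathway genes higher at 7 days. A pseudocount of 10 CPM gave 1.91 for Fcgr4 at 7 days, and no filter on low values gave 11 and 12 pathway genes higher. Log-normalized clustering and equal weight of cells turned Fcmr of B cells at 3 days to 0.016 and 0.15. Without thinning the shares of cells with Fcgr4 were 40.7%, 73.7% and 79.7%. Leaving out the ILC2-like cells with an IgE receptor chain was chosen after seeing the data. In conventional DCs the 3-day ratio ranged from −0.81 to 2.75 over the alternatives, so its direction depends on which cells are in the class, and the 7-day ratio from 1.51 to 2.97. The cause of these shifts was not tested.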
